A study of Rattus norvegicus with 8 samples.

Results

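The genes described here encode the ligands, receptors, SMAD proteins, antagonists and immediate target genes of transforming growth factor beta (TGF-beta), bone morphogenetic protein (BMP) and activin signalling, as measured in the enamel organ of the rat incisor. Members were chosen by gene symbol alone, from the symbols and symbol prefixes of the family (Tgfb, Tgfbr, Bmp, Bmpr, Gdf, Inha, Inhba, Inhbb, Inhbc, Acvr, Smad, Ltbp, Fst, Fstl, Grem and Id, with Nog, Chrd, Bambi and Eng). The rule used no measured value and found 68 of the 22523 probes of the array, for 63 gene symbols. A prefix is not a function, and 6 of the 68 probes (Bmp1, Tgfbi, Bmp2k, Tgfb1i1 and Tgfbrap1) belong to genes outside the groups of ligands, receptors, SMADs, antagonists, latent binding proteins and ID genes.

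Ligands of the family are secreted dimers that bring a type II and a type I serine/threonine kinase receptor together on the cell surface. The activated receptors phosphorylate SMAD2 and SMAD3 (TGF-beta and activin) or SMAD1, SMAD5 and SMAD9 (BMP), which join SMAD4 and enter the nucleus. TGF-beta is stored in the matrix as a latent complex and has to be released, while BMPs and activins are held back by secreted antagonists such as noggin, chordin, gremlin and follistatin. In the tooth, the family is known for the exchange of signals between dental epithelium and mesenchyme and for ameloblast differentiation.

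The study compared enamel organ cells while they secreted the enamel matrix (secretory stage) with those of the later maturation stage, in which the matrix is removed and the mineral grows. Both stages were dissected from the lower incisors of the same 4 male rats (Wistar in the labels, Wistar Hannover in the methods), aged 4 weeks and given no treatment that the labels name, and the RNA of the 8 dissections was read on 8 RatRef-12 v1 BeadChips, Illumina arrays of bead-bound probes. Each stage is therefore represented by 4 animals, and rats 1 to 4 are the replicates 1 to 4 of both stages. The dissected layer held several cell types, so that in such bulk samples fewer cells of a type and less RNA per cell cannot be told apart.

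The source label of maturation replicates 2, 3 and 4 named the secretory stage, whereas their titles, descriptions and tissue labels named the maturation stage. All 4 maturation ameloblast markers with a probe, among them Klk4, rose in the maturation stage, and their summed normalized signal lay between 21649 and 25484 on the maturation arrays and between 368 and 485 on the secretory arrays. Of the 4 secretory ameloblast markers, Enam and Mmp20 fell. Maturation replicates 1 and 4 stood apart in Enam, at normalized log2 signals of 9.08 and 8.22 against 5.17 and 5.53 in replicates 2 and 3 and 11.94 to 12.03 on the secretory arrays. With both left out, the same numbers of member probes passed the test (7 higher and 4 lower). Between 47 and 49 member probes were detected per maturation array and between 44 and 46 per secretory array, out of 11164 to 11450 and 10667 to 10941 detected probes in all, where a probe counts as detected at a detection p-value below 0.05. The precision is limited by the number of arrays.

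A probe was taken to have risen or fallen in the maturation stage where the moderated test of limma gave an adjusted p below 0.05 (Benjamini-Hochberg over all 22523 probes) and the stages differed at least 1.8-fold. By this rule 11 of the 68 member probes changed, or 16.2%, beside 7.75% of all probes. There were 7 probes that rose (4.6% of all probes did) and 4 that fell (3.15% of all probes did). Those that rose were Tgfb1, Inhba, Acvrl1, Fst, Ltbp2, Bmp1 and Tgfbi, and those that fell were Tgfb3, Inha, Bmp2 and Bambi. Of the 48 member probes detected on at least 4 arrays 22.9% changed, beside 15.5% of all probes detected as widely, and Inhba entered that number through the maturation arrays alone. The fitted log2 fold changes of the 68 probes ranged from -2.29 to 2.24 with a median of 0.02, where the median of all probes was -0.01. The upper end is that of Inhba, which no secretory array detected, and its lower bound in this processing is 1.95. For 23 member probes (33.8%) the values of the 4 arrays of one stage lay wholly above those of the other, which was the case for 27.7% of all probes. Without a fold threshold, 22 member probes (32.4%) passed, beside 26.9% of all probes. Where arrays were scaled to a common median in place of quantile normalization, 8 member probes rose and 4 fell, and the share of rises among all called probes moved from 59.3% to 77.6%. The member probes that passed the adjusted p but not 1.8-fold were 5 higher and 6 lower with quantile normalization and 15 higher and 2 lower with median scaling.

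**Figure D1:**
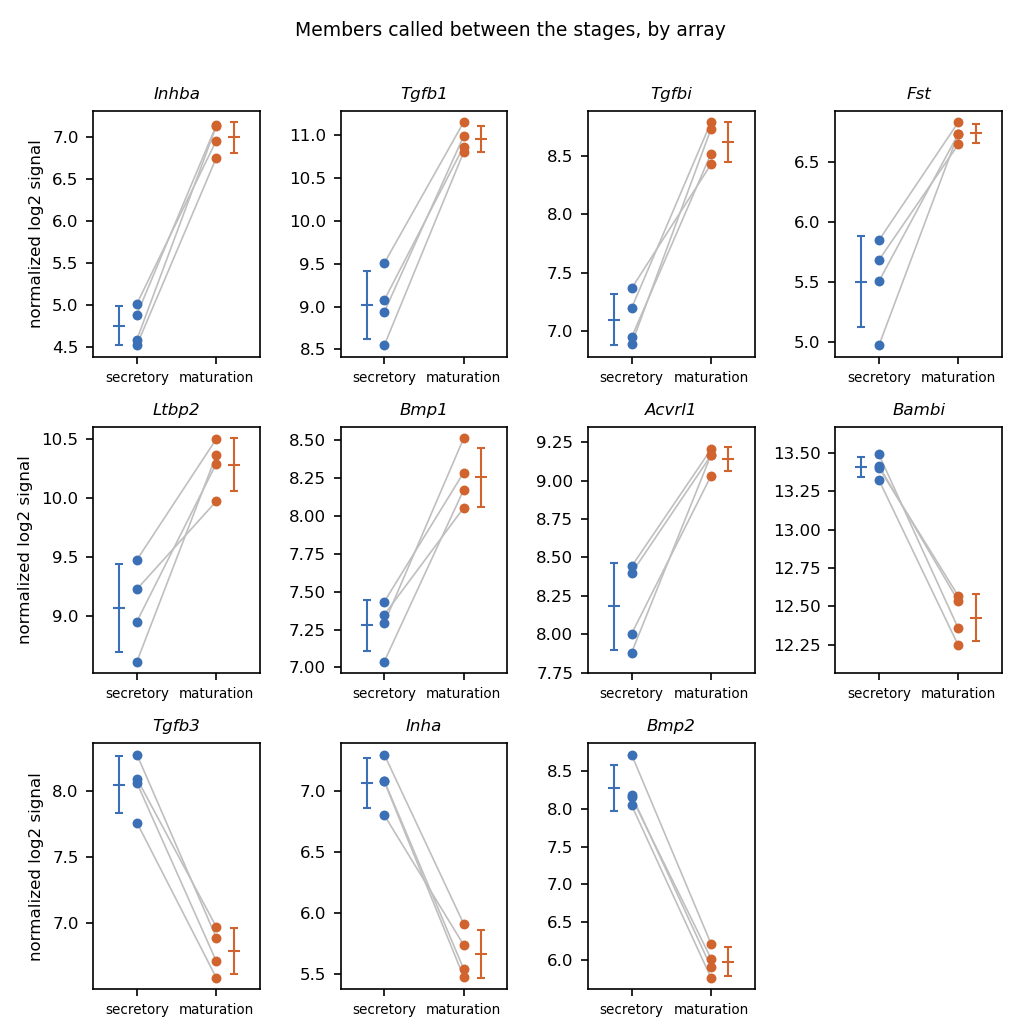
Normalized log2 signal (vertical axis, a different range in each panel) of the 11 member probes that changed between the stages, with 1 point per array and a grey line joining both stages of a rat. Bars mark the mean ± SD of 4 arrays. In each of the 11 panels the 4 secretory arrays and the 4 maturation arrays do not overlap, and all 4 lines run the same way.

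The promoters are shown for the members that changed and hold a short sequence that SMAD proteins are known to bind. They were picked for holding it, and binding was not measured. The 250 bases before the transcription start were read from RefSeq promoters of the GRCr8 assembly, which held 51 of the 63 genes and 7 of the 11 that changed, with none for Acvrl1, Bmp1, Bmp2 and Fst. The short SMAD-binding element was searched as CAGAC on both strands. It reads GTCTG on the opposite strand. The GC-rich element of BMP-activated SMADs was searched as GGCGCC, which reads the same on both strands. The elements do not overlap in these promoters and are in capitals below. Bambi lies on the minus strand at chr17:58821004-58821253, Inha on the plus strand at chr9:84442859-84443108, Ltbp2 on the minus strand at chr6:110257299-110257548 and Tgfbi on the minus strand at chr17:7990114-7990363, each written 5′ to 3′ on the strand of the gene.
Bambi: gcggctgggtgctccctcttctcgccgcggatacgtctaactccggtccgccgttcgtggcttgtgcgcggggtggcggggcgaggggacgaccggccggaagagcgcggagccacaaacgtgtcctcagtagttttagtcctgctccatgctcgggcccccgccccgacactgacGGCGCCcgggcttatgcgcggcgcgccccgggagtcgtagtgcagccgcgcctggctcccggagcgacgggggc
Inha: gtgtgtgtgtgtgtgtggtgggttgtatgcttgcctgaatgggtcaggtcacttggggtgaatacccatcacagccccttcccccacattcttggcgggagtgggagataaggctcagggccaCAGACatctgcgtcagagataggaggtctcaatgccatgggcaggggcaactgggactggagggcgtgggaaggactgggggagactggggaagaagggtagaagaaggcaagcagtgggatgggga
Ltbp2: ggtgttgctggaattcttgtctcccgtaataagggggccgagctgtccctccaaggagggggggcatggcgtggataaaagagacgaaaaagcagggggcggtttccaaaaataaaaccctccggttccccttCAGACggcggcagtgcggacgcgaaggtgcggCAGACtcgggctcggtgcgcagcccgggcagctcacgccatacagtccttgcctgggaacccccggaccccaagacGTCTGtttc
Tgfbi: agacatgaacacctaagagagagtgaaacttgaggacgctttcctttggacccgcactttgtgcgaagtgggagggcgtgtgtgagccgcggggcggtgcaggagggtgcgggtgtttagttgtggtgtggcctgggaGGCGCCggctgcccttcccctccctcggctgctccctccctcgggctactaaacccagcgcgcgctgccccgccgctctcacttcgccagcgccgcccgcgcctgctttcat
Inha held 1 copy and Ltbp2 held 3 copies of the short element, while Bambi and Tgfbi held 1 copy of the GC-rich element each. The letters are common, since 42.9% of all 33469 promoters held the short element and 8.7% the GC-rich one. Among 54 promoters of the 51 member genes, 15 (27.8%) held the former and 15 (27.8%) the latter. Member promoters were rich in G and C, with a median of 66.0% against 51.2% over all promoters, and those of Bambi and Tgfbi had 72.4% and 65.6%. The promoters of Tgfb1, Tgfb3 and Inhba held neither element in this window. Of the genes with an element, Inha and Bambi fell and Ltbp2 and Tgfbi rose.

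The 3 TGF-beta ligands went different ways. Tgfb1, the most widely made isoform, had normalized log2 signals of 10.87, 11.15, 10.99 and 10.80 on the maturation arrays of rats 1 to 4 and of 9.07, 9.51, 8.94 and 8.55 on their secretory arrays. The lowest maturation value lay more than a log2 unit above the highest secretory value. Tgfb1 rose 3.83-fold (log2 fold change 1.94, SE 0.178, limma adjusted p = 3.05e-05), and the rise within a rat was between 1.65 and 2.26 on the log2 scale. Tgfb3, the isoform needed for fusion of the palate, had signals of 6.71, 6.89, 6.97 and 6.59 in the maturation stage and of 8.06, 8.27, 8.09 and 7.76 in the secretory stage. Its stages did not overlap either, in the opposite direction, and Tgfb3 fell 2.39-fold (log2 fold change -1.25, SE 0.12, limma adjusted p = 4.06e-05). Without background correction its difference was -0.76, under the fold threshold. Tgfb2 lay at 10.33, 10.71, 10.84 and 10.31 in the maturation stage and at 10.40, 11.06, 11.11 and 10.66 in the secretory stage. Here the stages overlapped, the log2 difference was -0.26 with a 95% confidence interval from -0.66 to 0.14, and the adjusted p of limma was 0.382. The difference was in the same direction in each rat, and turned to 0.02 under median scaling.

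Among the latent TGF-beta binding proteins, which tether the latent complex to microfibrils of the matrix, 1 of 4 changed. Ltbp2, a microfibril protein that differs from its relatives in not binding latent TGF-beta, had signals of 10.36, 9.97, 10.50 and 10.29 in the maturation stage and of 8.62, 9.23, 9.48 and 8.96 in the secretory stage. All maturation arrays were above all secretory arrays. The rise was 2.32-fold (log2 fold change 1.21, SE 0.18, limma adjusted p = 0.000689) and ranged from 0.74 in one rat to 1.74 in another on the log2 scale. Ltbp1 had the smallest difference of the 4 with quantile normalization (Ltbp4 under median scaling), with 9.34, 8.41, 8.97 and 8.81 in the maturation stage and 8.72, 9.18, 9.25 and 9.02 in the secretory stage. The maturation arrays spanned the secretory ones, and the log2 difference of -0.16 had a 95% confidence interval from -0.59 to 0.26. For Ltbp3 and Ltbp4 the log2 differences were 0.35 and -0.28 with adjusted p-values of 0.068 and 0.0747 (limma), neither past the test, and those of Ltbp1 and Ltbp4 turned positive under median scaling. Ltbp3 passed the adjusted p, not 1.8-fold, under median scaling (0.63, limma adjusted p = 0.00437) and cyclic loess (0.42, limma adjusted p = 0.0365).

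The subunits of activin and inhibin moved in opposite directions. Inhba encodes the beta A subunit, 2 copies of which make activin A. On the maturation arrays its signals were 6.75, 6.96, 7.14 and 7.13 and on the secretory arrays 4.53, 5.02, 4.89 and 4.59. No secretory array detected it, whereas all 4 maturation arrays did. Measured against the lowest signals of detected probes on the secretory arrays, the maturation signal of Inhba was at least 3.86-fold higher in the main processing (limma adjusted p = 1.51e-06). Inha encodes the alpha subunit, which with a beta subunit makes inhibin, the antagonist of activin. Its signals were 5.91, 5.48, 5.54 and 5.74 in the maturation stage against 7.30, 7.08, 7.08 and 6.80 in the secretory stage, with no overlap. Inha fell 2.64-fold (log2 fold change -1.40, SE 0.124, limma adjusted p = 2.39e-05). Both probes of Inhbb, the beta B subunit, were undetected on all 8 arrays, and Inhbc was detected on 1. Without background correction the log2 differences of Inhba and Inha shrank to 0.84 and -0.60, and both missed the fold threshold. The fitted difference of Inhba was 1.40 with an offset of 50 and 1.88 with background correction that used no negative controls. Both lay below its bound of 1.95 on the log2 scale, which holds for the main processing only.

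Follistatin, the secreted protein that binds activin and keeps it from its receptor, rose together with Inhba. Fst signals were 6.73, 6.83, 6.65 and 6.74 in the maturation stage and 5.51, 5.85, 5.68 and 4.97 in the secretory stage, where the array of rat 4 did not detect it. The stages did not overlap, the fold was 2.35 (log2 fold change 1.23, SE 0.163, limma adjusted p = 0.000329), and the rise within a rat lay between 0.96 and 1.77 on the log2 scale. It missed the fold threshold without background correction (0.48) and with an offset of 50 (0.82). The follistatin-like gene Fstl1 was bright and nearly level, with 13.60, 13.64, 13.89 and 13.61 in the maturation stage and 13.50, 13.77, 13.83 and 13.59 in the secretory stage. Its log2 difference of 0.02 had a 95% confidence interval from -0.20 to 0.24, within 1.8-fold on both sides, and took a negative sign under median scaling and cyclic loess. Fstl3, another secreted binder of activin, differed by 0.06 with an interval from -0.09 to 0.21, and by 0.41 under median scaling (limma adjusted p = 0.000815).

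The BMP and GDF ligands were counted by 17 probes, of which Bmp2 alone changed. Bmp2, a ligand that drives bone and tooth formation, had signals of 6.22, 5.77, 6.02 and 5.91 in the maturation stage and of 8.71, 8.05, 8.15 and 8.18 in the secretory stage. The stages did not overlap, and even their nearest values were 1.83 log2 units apart. The fall was 4.89-fold (log2 fold change -2.29, SE 0.15, limma adjusted p = 3.48e-06), and the fall within a rat was between -2.49 and -2.13 on the log2 scale. Without background correction the log2 difference was -1.28. Of the 11 members that changed, Bmp2 had the largest fall. Bmp7, a ligand of epithelia and kidney, lay at 11.87, 11.99, 11.98 and 11.95 in the maturation stage and at 11.76, 11.91, 11.85 and 11.64 in the secretory stage. Its ranges overlapped, and the log2 difference was 0.16 (limma adjusted p = 0.153), with a 95% confidence interval whose upper end was 0.32. Bmp4, which acts between dental epithelium and mesenchyme, differed by 0.17 with an interval from -0.09 to 0.42 and an adjusted p of 0.371 (limma). Under median scaling Bmp7 and Bmp4 were at 0.36 and 0.53 and passed the adjusted p alone (0.00527 and 0.0131, limma).

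Smaller differences were measured for other ligands. Bmp3, a BMP that opposes the others, and Bmp6, a ligand that also controls iron through hepcidin, passed the adjusted p alone, with log2 differences of -0.37 (SE 0.0875, limma adjusted p = 0.0109) and -0.49 (SE 0.13, limma adjusted p = 0.0197). On all 4 secretory arrays both were above all 4 maturation arrays, at under 1.5-fold. Under median scaling the difference of Bmp3 was -0.01. Bmp6 was at -0.35 there, no longer past the adjusted p (0.0561, limma). The probes of Gdf1 disagreed, since ILMN_1365254 gave 0.36 and ILMN_1374865 gave -0.43, both past the adjusted p alone. Under median scaling they gave 0.70 (limma adjusted p = 0.000523) and -0.11 (0.547), and under cyclic loess 0.44 (0.00392) and -0.35 (0.057). The third probe was undetected on all 8 arrays, so that no direction is given for the gene. Bmp15 and Gdf10, detected on 6 and 5 arrays, differed by 0.41 and 0.42 with adjusted p-values of 0.0716 and 0.0568 (limma). Under median scaling both passed the adjusted p alone, at 0.45 and 0.46 (0.0339 and 0.0278, limma). Gdf6, Gdf7, Gdf8 (myostatin), Gdf9, Gdf11 and Gdf15 were undetected on all 8 arrays, and Bmp5 was detected on 2.

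Of 13 receptor probes, Acvrl1 alone changed. Acvrl1 encodes ALK1, a type I receptor best known from endothelium. In the maturation stage its signals were 9.17, 9.16, 9.20 and 9.03, and in the secretory stage 7.88, 8.40, 8.44 and 8.0. The maturation arrays agreed closely (SD 0.076) and all lay above the secretory arrays (SD 0.281). The rise was 1.95-fold (log2 fold change 0.96, SE 0.127, limma adjusted p = 0.000322) and came to 0.75 without background correction, under the fold threshold. Among 5 endothelial markers with a probe, Vwf rose 1.85-fold, Emcn, Tek and Flt1 differed by -0.00, 0.08 and -0.13 on the log2 scale and did not pass, and Cdh5 was undetected on all 8 arrays. The summed signal of the list was 5042 to 6271 on the maturation and 3913 to 4886 on the secretory arrays, without overlap. The part of endothelial cells in the difference of Acvrl1 was not tested.

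The differences of the other receptors were smaller. Acvr1, a type I receptor of BMPs and activin, lay at 7.87, 8.17, 8.08 and 7.81 in the maturation stage and at 7.85, 8.07, 8.08 and 7.87 in the secretory stage, which amounts to a log2 difference of 0.02 with a 95% confidence interval from -0.20 to 0.23, and of 0.35 under median scaling (limma adjusted p = 0.0293). Tgfbr2, the type II receptor of TGF-beta, passed the adjusted p alone at -0.44 (SE 0.095, limma adjusted p = 0.00631), with 5.59, 5.90, 5.64 and 5.48 in the maturation stage below 6.18, 6.05, 6.16 and 5.98 in the secretory stage. These 2 sets of values did not overlap, and the probe was dim on all 8 arrays. Under median scaling the difference was -0.22 and no longer passed (limma adjusted p = 0.129). Bmpr1a, a type I receptor of BMPs, also passed the adjusted p alone at -0.20 (limma adjusted p = 0.0345), yet stood at 0.16 under median scaling. For Tgfbr1, the type I partner of Tgfbr2, the log2 difference was -0.16 (limma adjusted p = 0.376), and for Bmpr2, the type II receptor of BMPs, -0.17 (limma adjusted p = 0.31). Both turned positive under median scaling. Acvr1b, Acvr1c and 1 of 2 probes of Acvr2b were undetected on all 8 arrays. The other probe of Acvr2b differed by 0.16 (limma adjusted p = 0.42), and by 0.48 under median scaling (limma adjusted p = 0.0193). Acvr2 (activin type II receptor), Bmpr1b and Tgfbr3 (betaglycan) were detected on 5, 6 and 7 arrays, with log2 differences of -0.36, 0.28 and -0.13 and none past the test.

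None of the 7 SMAD probes passed both thresholds. Smad2, which carries the TGF-beta and activin signal, had signals of 10.22, 10.16, 9.83 and 10.08 in the maturation stage and of 9.93, 10.01, 9.94 and 10.01 in the secretory stage, and the difference of 0.10 had a 95% confidence interval from -0.09 to 0.29. Under median scaling it was 0.41 (limma adjusted p = 0.0145). The BMP-activated pair differed in sign, as Smad5 stood at 0.50 (SE 0.114, limma adjusted p = 0.00899) and Smad1 at -0.31 (SE 0.0641, limma adjusted p = 0.00525). For each of them the stages did not overlap, at under 1.5-fold. The difference of Smad5 was larger under median scaling (0.83) and that of Smad1 changed sign there (0.05). Smad4, the partner shared by both branches, differed by -0.35 (limma adjusted p = 0.162) and Smad6, the inhibitory SMAD of the BMP branch, by 0.22 (limma adjusted p = 0.361), or by 0.56 under median scaling (limma adjusted p = 0.0142). Smad3 was detected on 3 arrays and Smad9 on none. The gene of the inhibitory Smad7 is named Madh7 in the array's annotation, where the rule did not reach it, and differed by -0.14 (limma adjusted p = 0.574).

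**Figure D2:**
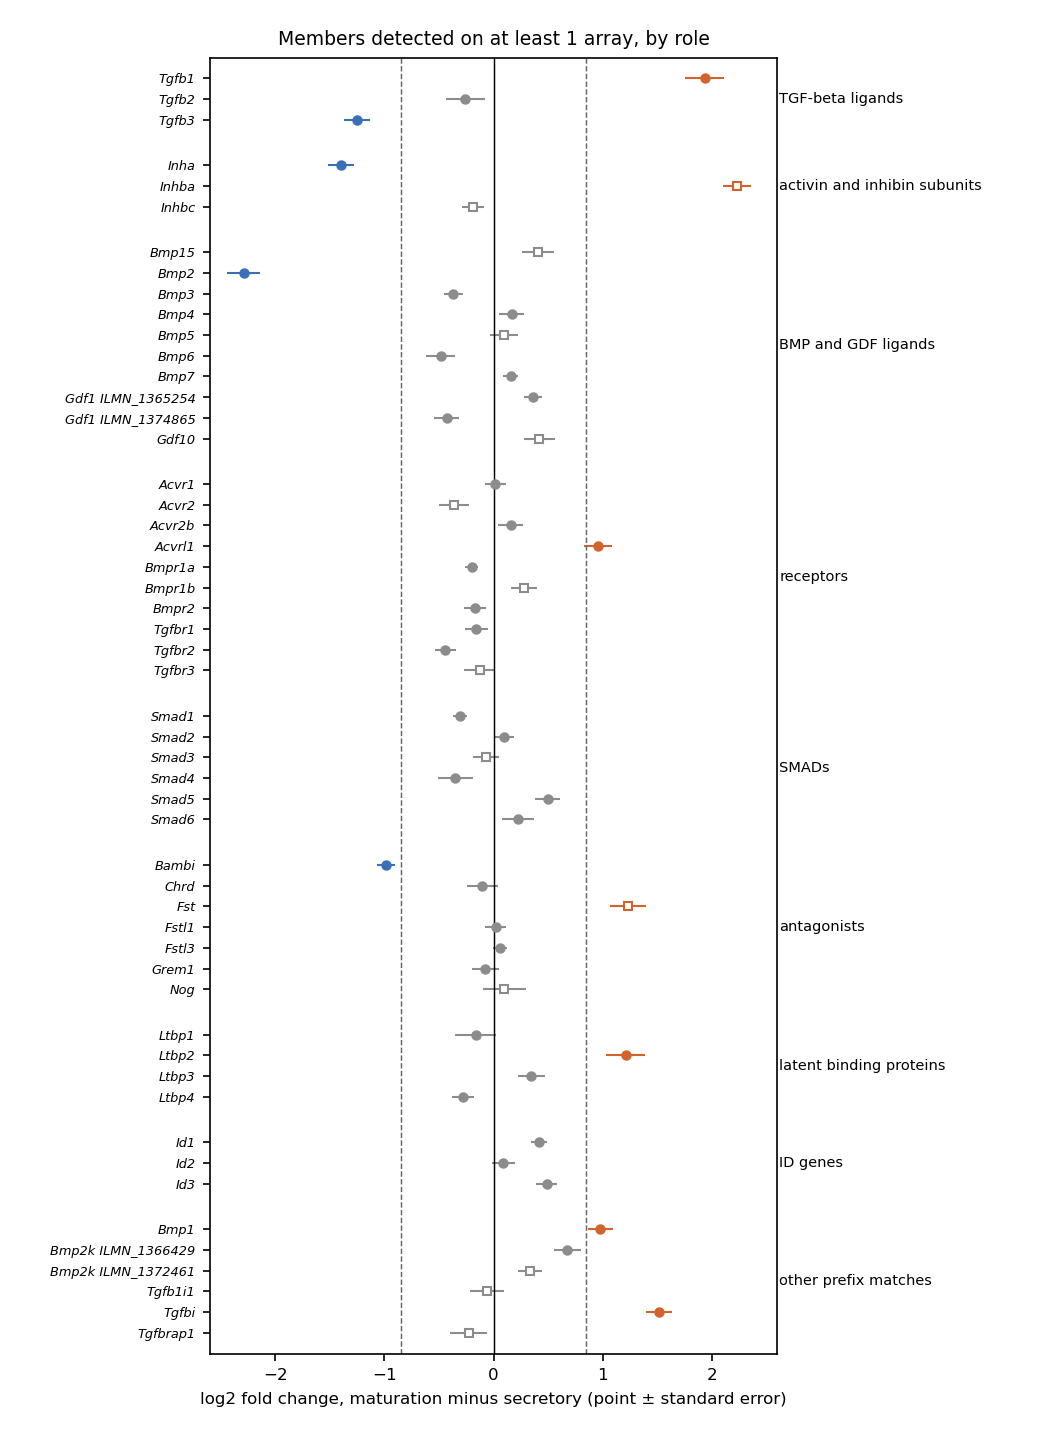
Log2 fold change of the maturation over the secretory stage (horizontal axis, point ± standard error of the limma fit) for the 52 member probes detected on at least 1 array, grouped by role. Filled circles are probes detected on all 8 arrays and open squares those detected on fewer, orange and blue points changed (higher and lower), and dashed lines mark 1.8-fold. The ligands and extracellular proteins spread from -2.29 to 2.24, the latter the fitted value of Inhba, which rests on undetected secretory signals, while the SMADs lie between -0.35 and 0.50.

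Bambi, a membrane protein shaped like a type I receptor without its kinase, which blocks TGF-beta and BMP receptors, was among the bright members. Its signals were 12.36, 12.57, 12.25 and 12.53 in the maturation stage against 13.49, 13.40, 13.32 and 13.42 in the secretory stage. The secretory arrays were close together (SD 0.0681) and above all maturation arrays. Bambi fell 1.98-fold (log2 fold change -0.98, SE 0.082, limma adjusted p = 1.66e-05), and its fall within a rat was between -1.13 and -0.84. The classical BMP antagonists showed no such difference. Chrd (chordin), Grem1 (gremlin) and Nog (noggin) differed by -0.10, -0.07 and 0.10 on the log2 scale with adjusted p-values of 0.706, 0.763 and 0.811 (limma). The signs of Chrd and Grem1 turned under median scaling, and that of Nog without secretory replicate 4 (-0.12). Fstl4 and Fstl5 were undetected on all 8 arrays.

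The ID genes, which encode inhibitors of basic helix-loop-helix factors and are direct targets of BMP-activated SMADs, did not reach 1.8-fold. Id1 had signals of 10.16, 10.19, 10.12 and 10.27 in the maturation stage and of 9.91, 9.67, 9.67 and 9.84 in the secretory stage. Id3 had 9.12, 9.05, 9.12 and 9.45 in the maturation stage and 8.75, 8.55, 8.68 and 8.82 in the secretory stage. For both genes all maturation arrays were above all secretory arrays. Both passed the adjusted p alone, with log2 differences of 0.41 (SE 0.0727, limma adjusted p = 0.00189) and 0.49 (SE 0.0991, limma adjusted p = 0.00454), and were at 0.72 and 0.84 under median scaling. Id2 lay at 12.60, 12.17, 12.13 and 12.37 in the maturation stage and at 12.17, 12.16, 12.27 and 12.30 in the secretory stage. Its stages overlapped, and the difference of 0.09 had a 95% confidence interval from -0.14 to 0.32.

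**Figure D3:**
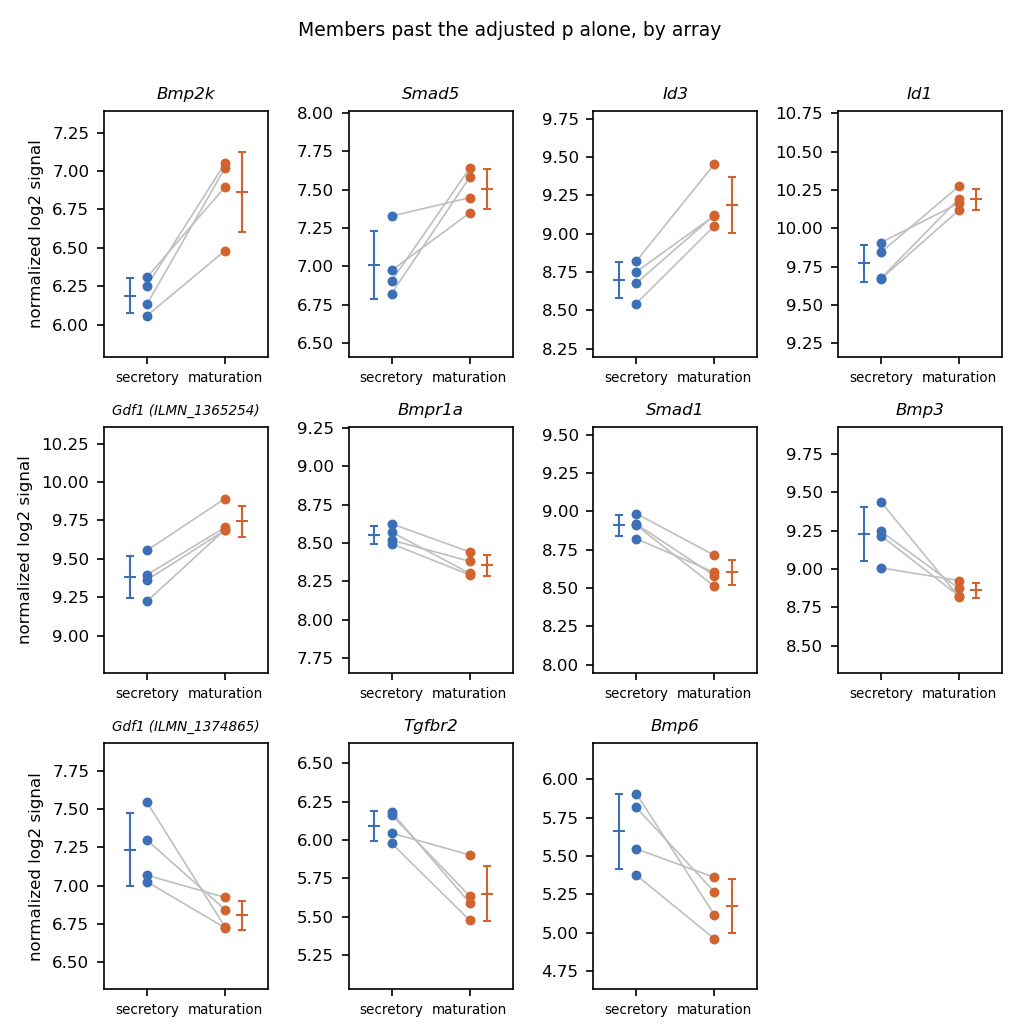
Normalized log2 signal (vertical axis, a range of the same width in each panel) of the 11 member probes that passed the adjusted p of limma but not 1.8-fold, with 1 point per array, a grey line for each rat and bars for the mean ± SD of 4 arrays. The Bmp2k panel shows probe ILMN_1366429. Smad5, Id1 and Id3 are higher and Smad1, Bmp3, Bmp6, Tgfbr2 and Bmpr1a lower in the maturation stage (Smad1 and Bmpr1a change sign under median scaling), while the 2 Gdf1 probes differ in opposite directions.

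The prefix also brought in genes with other functions, and 2 of their 6 probes changed. Tgfbi, an extracellular matrix protein named for its induction by TGF-beta, had signals of 8.73, 8.52, 8.43 and 8.79 in the maturation stage and of 6.89, 6.95, 7.37 and 7.20 in the secretory stage. The stages were a log2 unit apart at their nearest, and Tgfbi rose 2.87-fold (log2 fold change 1.52, SE 0.123, limma adjusted p = 1.36e-05), or by 1.02 on the log2 scale without background correction. Bmp1 is a metalloproteinase that trims procollagens and chordin, and is no BMP ligand. Its signals were 8.51, 8.29, 8.05 and 8.17 in the maturation stage against 7.29, 7.43, 7.35 and 7.04 in the secretory stage, without overlap. Bmp1 rose 1.97-fold (log2 fold change 0.98, SE 0.115, limma adjusted p = 0.000148), and missed the fold threshold without background correction (0.65) and with an offset of 50 (0.85). Bmp2k, a kinase first described as induced by BMP2, gave 6.48, 7.05, 6.90 and 7.02 against 6.06, 6.25, 6.31 and 6.13 with its probe ILMN_1366429. Those values did not overlap, but the log2 difference of 0.68 (SE 0.124, limma adjusted p = 0.00254) missed 1.8-fold, which it passed under median scaling (0.94). The other Bmp2k probe, Tgfb1i1 and Tgfbrap1 differed by 0.33, -0.06 and -0.23 and did not pass.

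Each of the 11 changed members gave a p of 0.0286 in a two-sided exact permutation test over the 8 arrays, the smallest that 4 against 4 arrays allow. That p restates the lack of overlap and leaves the pairing by rat aside. The standard error of their bead signals was 2.28% to 5.41% of the signal over single probes and arrays. Over all members, 18 to 83 beads per array were read. Markers of other cell types differed between the stages as well. Of 8 macrophage and leukocyte markers 6 rose, Cd68 by 4.56-fold, and the summed signal of the list was 10390 to 13433 on the maturation and 3763 to 4520 on the secretory arrays. Of 3 osteoclast markers Ctsk and Mmp9 rose while Calcr was undetected on all 8 arrays, and their summed signals were 14614 to 18783 and 5891 to 8408. Of 9 fibroblast and mesenchyme markers 1 rose (Prrx1), with sums of 82739 to 86225 and 67025 to 77894. Of 7 odontoblast and osteoblast markers Ibsp rose, Dspp fell and Sp7 was undetected on all 8 arrays, with sums of 14616 to 17217 on the maturation and 9002 to 23892 on the secretory arrays. Dspp was undetected in the maturation stage, and its secretory signal was at least 34.0-fold higher in the main processing. No marker of skeletal muscle (5 with a probe) or of erythroid cells (3 with a probe) passed. Maturation replicate 4 stood apart from its stage in muscle markers. It had Acta1 at 8.35 (the others 5.15 to 6.36), Ckm at 7.68 (4.93 to 5.51) and Mylpf at 7.28 (4.77 to 5.31). The part of these cell types in the differences of the 11 members was not tested.

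The pathway beyond the symbol rule was followed in a list of 86 other genes, of which 78 had a probe and 63 were detected. In this list 17 genes changed, 12 higher and 5 lower in the maturation stage, and 21.0% of the probes of the list passed, beside 7.75% of all probes. The list was richer in detected genes than the array, where 9011 of 22523 probes were undetected on all 8 arrays. Of all probes detected on at least 4 arrays 15.5% passed, and the share of the list at that level was not computed. The median log2 difference of the list was 0.05. Without background correction 9 of the genes were higher and 5 lower, as Bgn (0.81), Cdkn1a (0.36) and Cdkn2b (0.60) missed the fold threshold. Among 20 regulators and further antagonists, Pmepa1, Nbl1 and Crim1 rose while Sostdc1 and Nedd4l fell. Pmepa1, a TGF-beta target that holds back SMAD signalling, had means of 13.04 ± 0.282 in the maturation and 10.76 ± 0.252 in the secretory stage (normalized log2 signal, SD, n = 4), a 4.86-fold rise. Crim1, a membrane protein that binds BMPs, rose 4.28-fold from 6.81 ± 0.176 to 8.90 ± 0.214. Nbl1, a secreted BMP antagonist, rose 2.26-fold. Sostdc1 (ectodin), an antagonist of BMP and Wnt signalling in teeth, fell 4.76-fold from 11.96 ± 0.158 to 9.70 ± 0.349, and Nedd4l, a ubiquitin ligase that marks activated SMADs, fell 2.66-fold.

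Processing, activation and storage of the ligands were covered by 16 genes with a probe, of which 3 rose and 2 fell. Genes listed for these roles thus went both ways. Pcsk6, a proprotein convertase that cleaves precursors of the family, fell 4.09-fold from 10.27 ± 0.216 to 8.24 ± 0.119 (normalized log2 signal, SD, n = 4), and Itgb6, the integrin subunit that with alpha v releases active TGF-beta from its latent complex, fell 3.02-fold from 11.88 ± 0.135 to 10.28 ± 0.251. Bgn (biglycan), Mmp14 and Plat (tissue plasminogen activator) rose 2.28-, 1.87- and 2.99-fold, and Mmp14 lost its call without secretory replicate 4 (0.80). Of 15 intracellular partners Runx1 rose 2.17-fold and no other changed, and none of the 8 further ligands and co-receptors did. Among 19 known target genes, 5 rose and 1 fell. Junb rose 5.71-fold from 8.10 ± 0.197 to 10.61 ± 0.0876, Fn1 (fibronectin) 2.51-fold, Snai1 2.79-fold and Cdkn1a 1.86-fold, and Cdkn1a lost its call under 7 of the alternatives. Cdkn2b, an inhibitor of the cell cycle, was undetected on all 4 secretory arrays, and its maturation signal was at least 2.26-fold higher in the main processing. Dlx5, a homeobox gene downstream of BMPs, fell 2.99-fold. Ctgf, a target in wide use as a reporter of TGF-beta, did not pass, with a log2 difference of 0.05 (limma adjusted p = 0.795). Under median scaling 14 genes of the list rose and 5 fell.

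**Figure D4:**
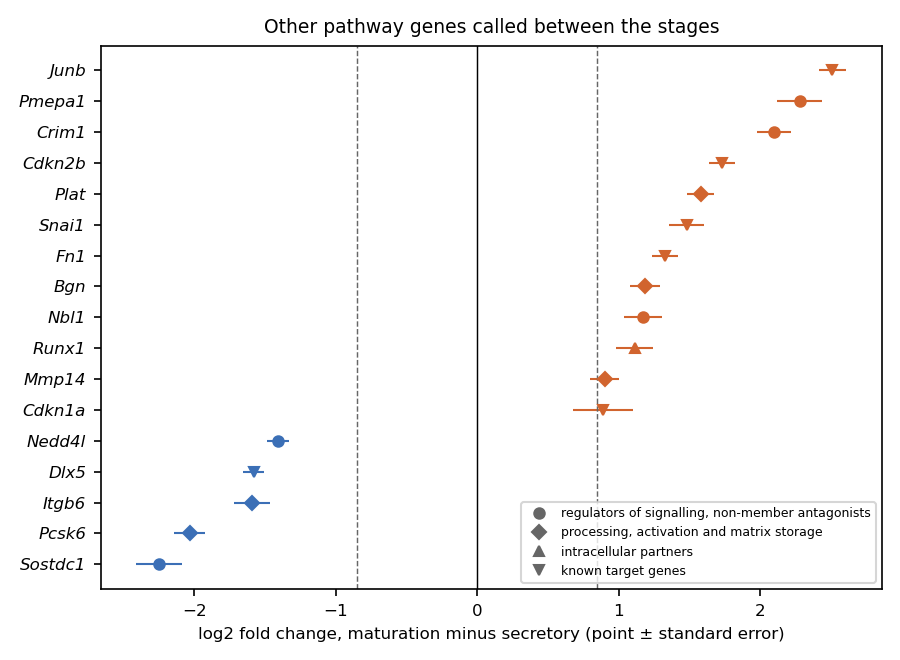
Log2 fold change of the maturation over the secretory stage (horizontal axis, point ± standard error of the limma fit) for the 17 other pathway genes that changed, with the sublist given by the symbol and 1.8-fold by dashed lines. The 12 genes to the right were higher in the maturation stage, led by Junb at 2.51, and the 5 to the left were lower, with Sostdc1 at -2.25; the fitted value of Cdkn2b rests on secretory signals that were not detected.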

How the data were processed

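Total RNA of 8 enamel organ dissections (4 rats, both stages of each) was measured on RatRef-12 v1 arrays. The authors deposited, for each probe and array, a mean bead intensity without background correction or normalization, a detection p-value, the number of beads (a count) and the bead standard error (a signal in the same unit). The software that summarised the beads is not given in the sources used here.

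The analysis of the intensities used limma 3.58.1 in R 4.3.3. With neqc, the mean and variance of the negative controls were estimated from detection p-values, background was subtracted by normexp, 16 was added, and values were quantile-normalized and put on the log2 scale. Then all 22523 probes were fitted with lmFit and eBayes, without pairing and without a filter. The intervals and adjusted p-values of this fit therefore include the spread between rats. Undetected in a stage means a detection p-value of at least 0.05 on each of its 4 arrays, and the fold is then a lower bound. Exact permutation tests, promoter searches and figures used Python 3.11.15 and scipy 1.17.1.

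Members and lists were chosen with earlier results of these data known. Every member may be named, except that some items are not reported here; array values are given for members that changed and, in each role, for the member detected on all 8 arrays with the smallest difference, and those of Tgfbr2, Id1 and Id3 were added after their values were seen. Other pathway genes are named where they changed (Ctgf after its values were seen). No probe carries the symbol Eng, Id4, Bmp8a, Bmp8b or Gdf5, and Smad7, Bmp10, Gdf2 and Gdf3 stand under other symbols.

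Each rat gave both stages, so equal replicate numbers mark 1 rat. Over the 11233 most widely detected probes (at least 4 arrays), deviations from the stage means correlated within a rat at 0.195, 0.129, 0.219 and 0.234, against -0.0833 to -0.0426 on average with other rats. The deviations of a stage cancel out, so the negative averages follow from the positive values and are no separate contrast. Alternatives were the rat as a block, no background correction, normexp without negative controls, an offset of 50, median scaling, cyclic loess, a filter on detection, the methods' t-test, adjusted p alone, lower bounds for undetected probes, and each array left out in turn after normalization.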

Additional observations from a re-analysis of the deposited data

Results flagged for a closer look

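Values that stood far from the other 3 arrays of their stage were sought by Dixon's test (the gap to the nearest value over the range) in 135 sets of 4 arrays, and 9 were found where chance gives about 6.75. Bmp5 had 5.12 on maturation replicate 1 (the others 4.68 to 4.73) and 5.02 on secretory replicate 3 (the others 4.59 to 4.62), the only arrays that detected it. Gdf1 (ILMN_1365254) had 9.89 on maturation replicate 1, with the others at 9.69 to 9.70. Smad4 had 11.19 and Fstl1 had 13.89 on maturation replicate 3, where the others had 11.72 to 11.83 and 13.60 to 13.64. Nog had 4.76 on secretory replicate 4, below 5.56 to 5.69. Among the other pathway genes, Crim1 had 8.59 on maturation replicate 1 (the others 8.98 to 9.03), Mmp14 had 11.50 on maturation replicate 3 (the others 11.39 to 11.40) and Snai1 had 10.49 on maturation replicate 4 (the others 10.11 to 10.17). None of the 11 members that changed was among them.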

How the results depend on the processing

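Member probes that rose or fell numbered 7 and 4 whichever single array was left out (7 to 7 and 4 to 4), and other pathway genes 11 to 12 and 5 to 5. With the rat as a replicate block the counts were 7, 4, 12 and 5, and no member lost its call. No member could have gained a call, since the block keeps each log2 difference and the members without a call missed the fold threshold. The unchanged calls therefore do not show what the pairing does to members reported as not different. Without background correction 3 member probes rose and 2 fell, with 859 calls among all probes against 1745; the cause was not tested. By adjusted p alone 12 member probes were higher and 10 lower, and 17 other pathway genes were higher and 14 lower. Cdkn1a lost its call without maturation replicate 4 (0.75) or secretory replicate 2 (0.72), with both maturation replicates 1 and 4 left out (0.77), with the methods' t-test (adjusted p = 0.0563), with normexp without negative controls (0.72), with an offset of 50 (0.60) and without background correction, and Mmp14 without secretory replicate 4 (0.80). Over 18 alternatives of the 11 members, 190 of 198 values kept direction and call, 8 missed the fold threshold and 0 reversed. Much of this was set beforehand. The block, the detection filter and the methods' t-test leave each log2 difference as it was, and lower bounds alter Inhba alone. Leaving out arrays cannot reverse stages that do not overlap. Only the changes of background correction, offset or scaling could have turned a direction. The 8 were Tgfb3 (-0.76), Inha (-0.60), Inhba (0.84), Acvrl1 (0.75), Fst (0.48) and Bmp1 (0.65) without background correction, and Fst (0.82) and Bmp1 (0.85) with an offset of 50. Tgfb1, Bmp2, Bambi, Ltbp2 and Tgfbi kept their calls in all 18, Bmp2 at -1.28 and Tgfbi at 1.02 without background correction. Leaving out maturation replicates 1 and 4 together was chosen after seeing the data. Signals near background limit 16 undetected member probes, for which no difference can be read.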
